A study of Mus musculus with 5 samples.

Results

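The 10 genes described here encode receptors and ligands that set how strongly a T cell is costimulated or inhibited. They are the receptors Cd28, Ctla4 and Icos, the ligands Cd86 and Cd274, and the inhibitory receptors Pdcd1, Lag3, Havcr2, Tigit and Btla. They were taken by their symbols, 10 of the 38130 entries of the deposited expression tables, and each symbol matched 1 entry. RNA was sequenced from regulatory T (Treg) cells, lymphocytes that depend on the transcription factor Foxp3 and hold immune reactions in check. All groups are C57BL/6 mice with Cre and a yellow fluorescent protein (YFP) expressed from Foxp3, and CD4+YFP+ cells were sorted from them.

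There were 5 libraries in 4 groups. KO is the library labelled as Foxp3Cre-YFP with malt1fl/fl, a deletion of Malt1 in Treg cells, at 21 days (1 library). KI is Foxp3Cre-YFP with malt1fl/C472A at 6 weeks (2 libraries), which pairs a floxed allele with an allele whose protease activity is lost per the labels, and where Cre acts the floxed allele is deleted too. Wild type (WT) is the Foxp3-Cre-YFP reporter alone, at 6 weeks (1 library) and at 21 days (1 library). Malt1 encodes a paracaspase that carries signals of the T cell receptor and CD28 to NF-kB. How many animals went into a library is not given in the sources used here, so the spread between the KI libraries may be technical.

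CD28 binds CD80 and CD86 on antigen-presenting cells and gives the second signal of T cell activation. CTLA-4 binds the same ligands with higher affinity and, on Treg cells, removes them from the presenting cell, and Treg cells are known for high CTLA-4. PD-1, LAG-3, TIM-3, TIGIT and BTLA are inhibitory receptors, with PD-L1, MHC class II and other surface proteins among their ligands.

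Values are FPKM (fragments counted per transcript length and per mapped fragments of the library) divided by a factor per library, called scaled FPKM, each with the lower and upper bound that the authors deposited. These bounds describe the error of counting and assigning fragments in 1 library and say nothing of the spread between mice. Estimated depth was 7622000 fragments in KO, 23375000 and 23441000 in KI, 6792000 in 6-week WT and 27155000 in 21-day WT. Malt1 itself had 17.6 scaled FPKM in KO, 55.9 and 37.8 in KI, 15.2 in 6-week WT and 27.0 in 21-day WT, so its level over the whole gene does not separate KO from WT, and the files give no exon values. Foxp3 had 30.5 in KO, 70.1 and 73.6 in KI, 39.5 in 6-week WT and 70.7 in 21-day WT. Depth and Foxp3 thus split the libraries in the same way, KO and WT at 6 weeks low, both KI libraries and WT at 21 days high, across age and genotype. Ikzf2, a further Treg marker, had 15.35 in KO, 62.6 and 104 in KI, 36.3 in 6-week WT and 68.0 in 21-day WT. Cd3e, Cd3g and Cd4 made up most of the sum of 6 Treg and CD4 T cell markers, Foxp3 and Ikzf2 included. None of the 6 was at 0. They summed to 892 scaled FPKM in KO, 729 and 979 in KI, 995 in 6-week WT and 862 in 21-day WT. WT at 6 weeks also had the highest summed level of myeloid, dendritic, plasmacytoid dendritic and B cell markers. In bulk RNA, fewer cells of a type and less RNA per cell cannot be told apart.

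**Figure D1:**
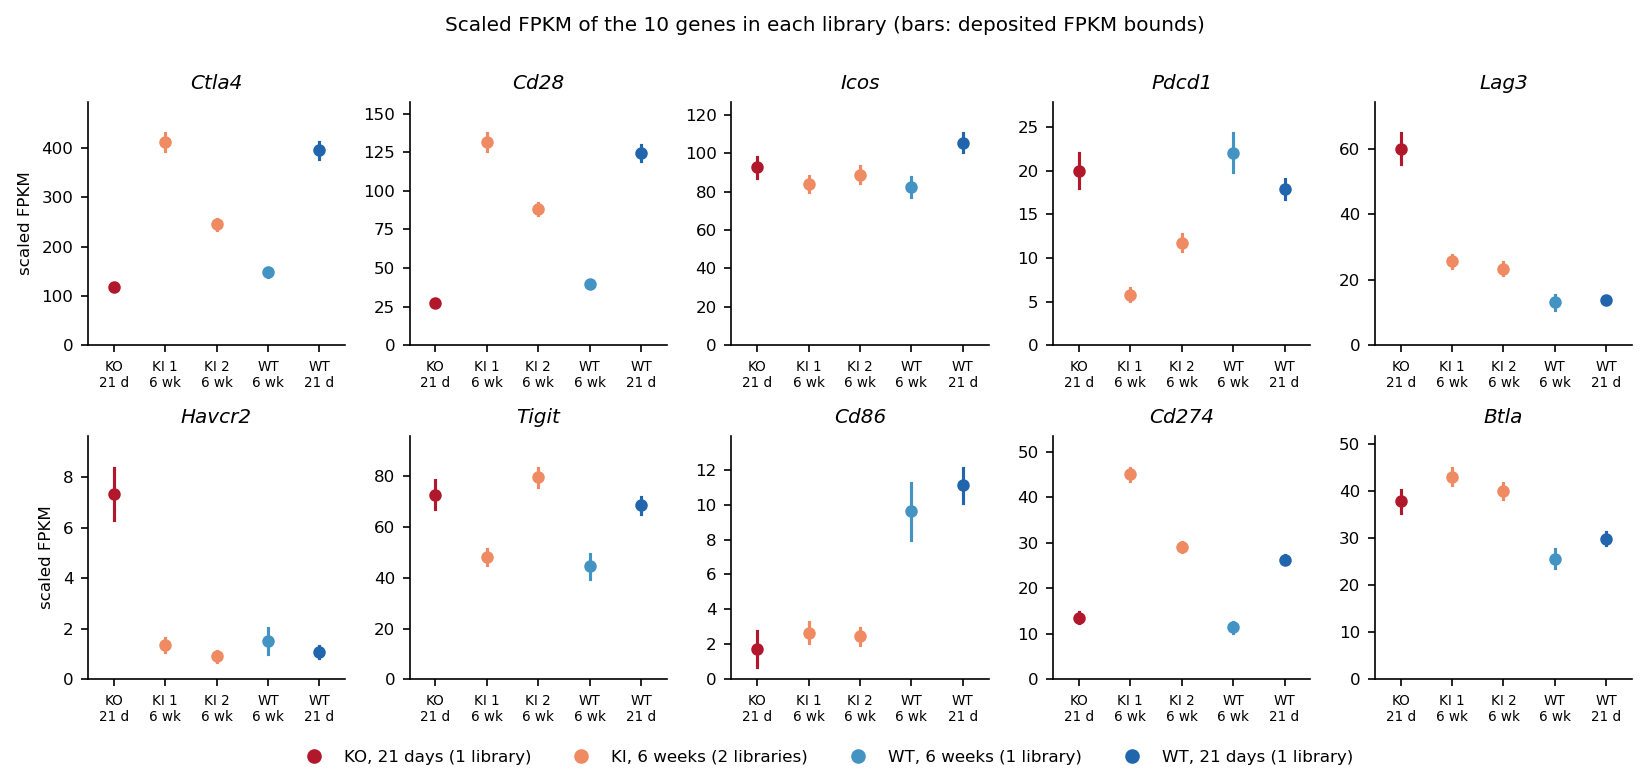
Scaled FPKM (y axis, linear, from 0) of the 10 genes in the 5 libraries (x axis), with bars for the deposited FPKM bounds. Cd86 lay below 3 in all 3 mutant libraries and above 9 in both WT libraries, Havcr2 and Lag3 were highest in KO, and Ctla4, Cd28 and Cd274 were low in KO and in 6-week WT.

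The genes spanned a wide range of levels. Averaged over the 5 libraries, Ctla4 lay above 98.4% of the 11296 genes whose scaled FPKM averaged 1 or more, the tested genes. Icos lay above 95.2%, Cd28 above 94.6% and Tigit above 92.6% of them, while Cd86 lay above 33.9% and Havcr2 above 15.6%. Ctla4 was the highest of the 10 in every library. Havcr2 was the lowest of the 10 in both KI and both WT libraries, and in KO the lowest was Cd86. All 10 genes passed the filter.

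Cd28, Ctla4 and Icos stand next to each other on the plus strand of chromosome 1 of build GRCm38, at 60716800 to 60773359, 60887000 to 60915832 and 60977927 to 61000320. The gaps between them are 114 and 62.1 kb. Cd28 and Ctla4 followed each other across the libraries, and Icos did not follow them. Ctla4 had 118 scaled FPKM in KO, 412 and 246 in KI, 148 in 6-week WT and 396 in 21-day WT. Cd28 had 27.2 in KO, 132 and 88.2 in KI, 39.6 in 6-week WT and 124 in 21-day WT. For both genes KO was lowest and WT at 6 weeks next, and the bounds of KI replicate 1 and WT at 21 days overlapped at the top. Both genes were high in the 3 libraries of high depth and high Foxp3, and the part of depth or of Foxp3+ cell content in this was not tested. Icos, the inducible costimulator that binds ICOS ligand, had 92.6 in KO, 83.9 and 88.9 in KI, 82.4 in 6-week WT and 105 in 21-day WT. Its log2 range of 0.35 was the smallest of the 10, and below WT at 21 days the bounds of neighbours in the order overlapped.

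Ratios within a library do not depend on the scaling between libraries. Ctla4 over Cd28 was 4.34 in KO, 3.13 and 2.78 in KI, 3.72 in 6-week WT and 3.18 in 21-day WT, so the highest was 1.56 times the lowest while the genes alone had log2 ranges of 1.79 and 2.23. Ctla4 over Foxp3 was 3.88 in KO, 5.88 and 3.34 in KI, 3.73 in 6-week WT and 5.60 in 21-day WT. The KI libraries thus differed from each other by more than WT at 21 days differed from WT at 6 weeks, with KI replicate 2 lowest of all. Icos over Foxp3 was 3.04 in KO, 1.20 and 1.21 in KI, 2.09 in 6-week WT and 1.49 in 21-day WT. It was highest in KO and lowest in both KI libraries, and the upper bounds of the KI ratios, 1.32 and 1.33, lay below the lower bound in 21-day WT, 1.36. Icos itself varied little, with a log2 range of 0.35, so this ratio mostly restates the level of Foxp3, lowest in KO.

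**Figure D2:**
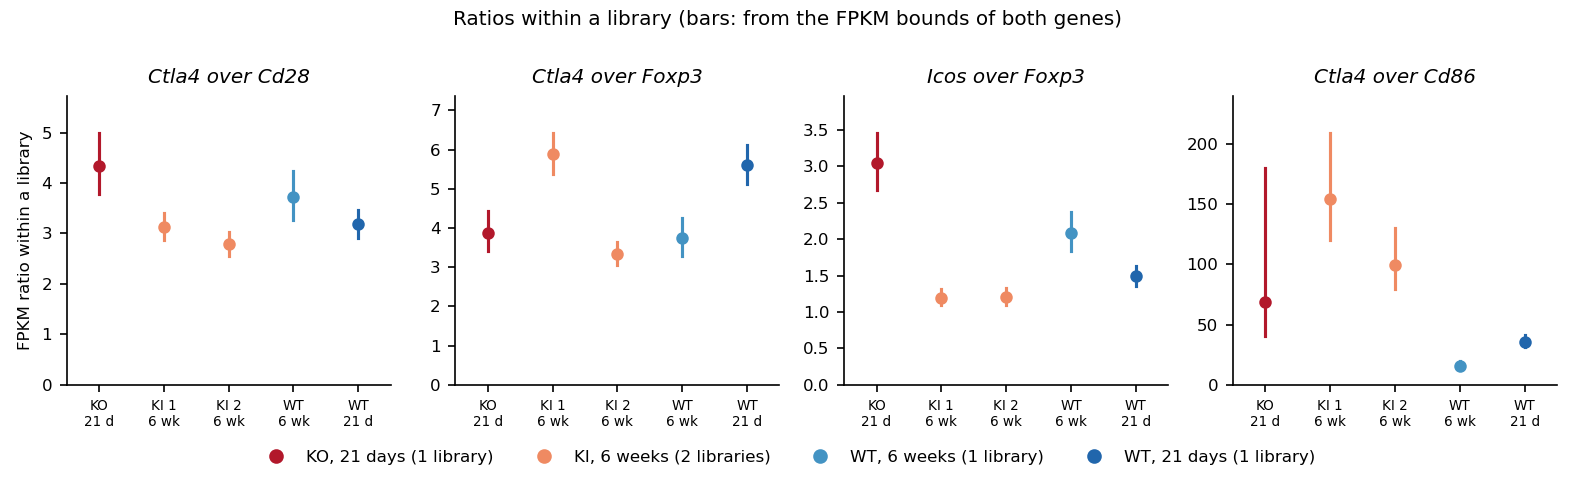
FPKM ratios of gene pairs within each library (y axis, linear, from 0) for the 5 libraries (x axis), with bars from the lower bound of one gene over the upper bound of the other and the reverse. Icos over Foxp3 was 3.04 in KO and 1.20 and 1.21 in KI, and Ctla4 over Cd86 was at least 68.8 in the 3 mutant libraries and at most 35.6 in both WT libraries.

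Cd86 encodes B7-2, a ligand of CD28 and CTLA-4 made mainly by B cells, dendritic cells and macrophages. The gene lies on the minus strand of chromosome 16, at 36603869 to 36666081. It had 1.72 scaled FPKM in KO, 2.67 and 2.46 in KI (2.56 ± 0.152, SD, n = 2), 9.63 in 6-week WT and 11.1 in 21-day WT. The upper bounds in the mutant libraries were 2.74, 3.29 and 2.94, and the lower bound in 21-day WT was 10.1. The bounds in 6-week WT also lay above all of the mutant ones, so the genotypes did not overlap at either age. KO had 0.155 of the level in 21-day WT, and the KI mean had 0.266 of that in 6-week WT. Ctla4 over Cd86, a receptor over its ligand, was 68.8 in KO, 154 and 99.9 in KI, 15.3 in 6-week WT and 35.6 in 21-day WT. Its lowest bound in a mutant library was 40.5, in KO, just under the upper bound of 40.9 in 21-day WT.

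B cell markers, summed, were lower in the mutants than in WT as Cd86 was, but the order within each genotype differed. The summed level of 5 markers (Cd79a, Cd79b, Ms4a1, Pax5 and Cd22) was 8.43 scaled FPKM in KO, 3.96 and 2.88 in KI, 21.9 in 6-week WT and 16.4 in 21-day WT. No marker of this list was at 0 in any library, and 4 of the 5 were lower in all 3 mutant libraries than in both WT libraries, the exception being Cd22, at 2.41 in KO. Cd86 over that sum was 0.204 in KO, 0.675 and 0.854 in KI, 0.440 in 6-week WT and 0.678 in 21-day WT. It was lowest in KO, and of the KI values KI replicate 2 lay above both WT libraries and KI replicate 1 between them. The part of B cell RNA in the level of Cd86 was not tested. Of the other presenting cell markers, Tcf4, a plasmacytoid dendritic cell gene, was lower in all 3 mutants too, at 1.21 in KO and 1.09 and 0.583 in KI against 4.03 in 6-week WT and 1.73 in 21-day WT. The others of its list were higher in KO than in 21-day WT. They were Siglech (1.24 against 0.294), Ly6d (4.65 against 1.71), Spib (0.898 against 0.862) and Bst2 (32.7 against 31.9). In both KI libraries these genes were lower than in both WT libraries. Clec9a, a dendritic cell gene, was at 0 in KO and both KI libraries, against 1.02 in 6-week WT and 0.0338, itself near 0, in 21-day WT. Zbtb46, of the same list, was instead higher in all 3 mutants. It had 1.01 in KO, 1.56 and 0.995 in KI, 0.49 in 6-week WT and 0.339 in 21-day WT. H2-Aa (25.9 against 9.96), H2-Ab1 (16.0 against 8.83), Itgax and Flt3 of that list were also higher in KO than in 21-day WT. Clec9a, Zbtb46, Itgax and Flt3 were not among the tested genes. The sums of these lists were ordered otherwise than Cd86. The sum of 6 myeloid markers was 13.7 in KO, 23.5 and 4.27 in KI, 87.4 in 6-week WT and 6.57 in 21-day WT. WT at 21 days, highest in Cd86, thus had less of these markers than KO and KI replicate 1. The sum of 6 dendritic cell and MHC class II genes was 43.4 in KO, 21.3 and 5.25 in KI, 139 in 6-week WT and 19.3 in 21-day WT. In that list Flt3 was also at 0 in KI replicate 2. The 5 plasmacytoid dendritic cell markers summed to 40.7 in KO, 20.6 and 27.2 in KI, 116 in 6-week WT and 36.5 in 21-day WT, with Siglech at 0 in KI replicate 1. The part of these cells in the level of Cd86 was not tested.

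**Figure D3:**
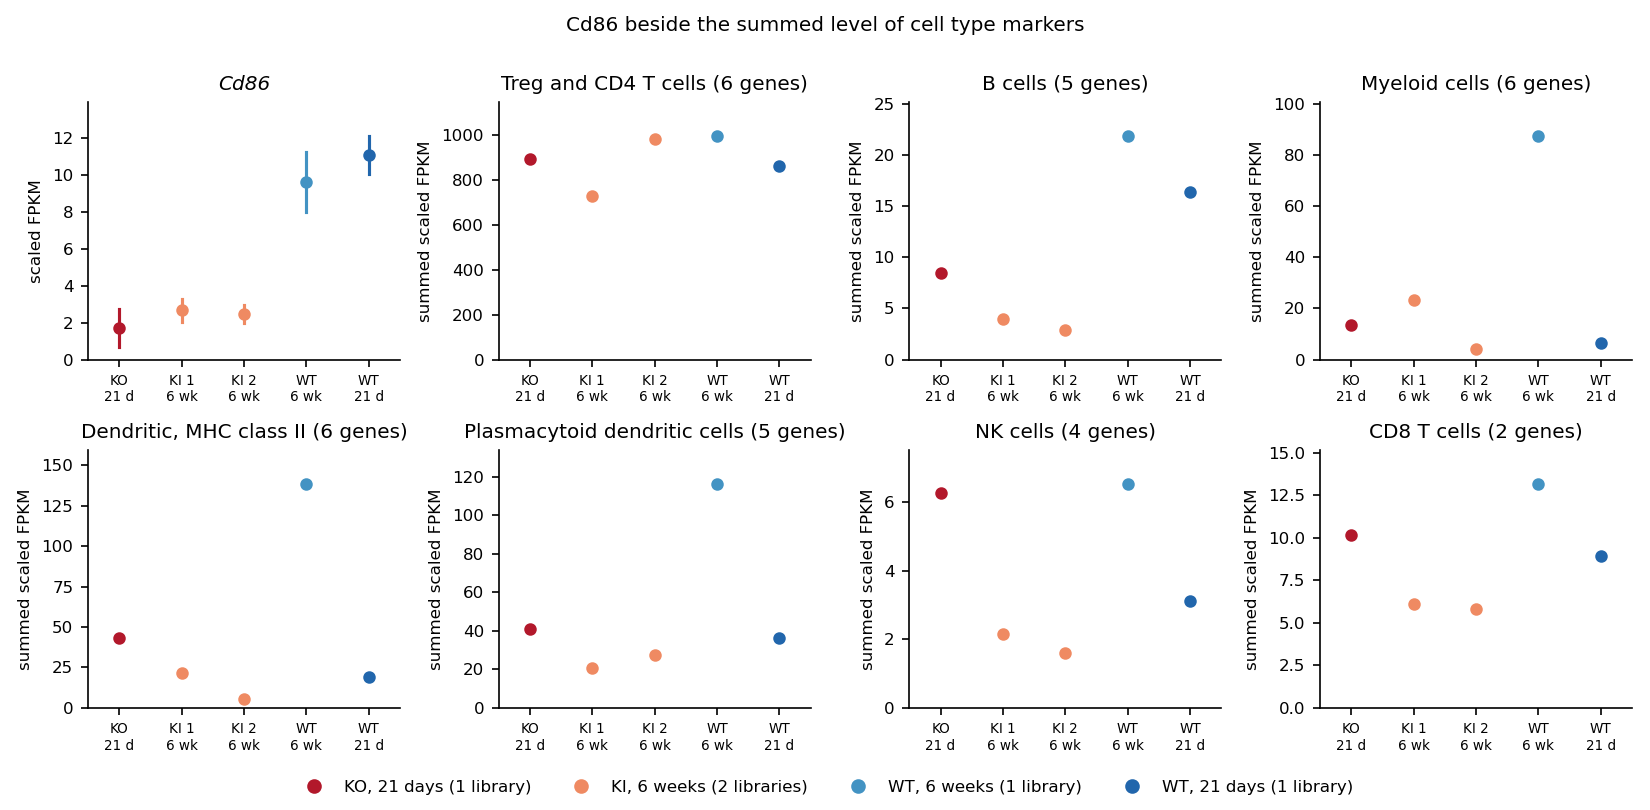
Scaled FPKM of Cd86 with its deposited bounds, and the summed scaled FPKM of 7 marker lists (y axes, linear, from 0), in the 5 libraries (x axis). The B cell sum was at most 8.43 in the 3 mutant libraries and at least 16.4 in both WT libraries, as Cd86 was low in the mutants and high in WT, while the other presenting cell lists were highest in 6-week WT alone.

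Cd274 encodes PD-L1, the ligand of PD-1, and lies on the plus strand of chromosome 19, at 29367455 to 29388095. An annotated antisense gene shares 511 exon bases with it, and reads of the pair cannot be told apart, since the strand setting is not given in the sources used here. It had 13.5 scaled FPKM in KO, 45.1 and 29.1 in KI, 11.4 in 6-week WT and 26.3 in 21-day WT. Both KI libraries lay above both WT libraries with bounds apart, by 3.26-fold for the KI mean over WT at 6 weeks but only 1.41-fold over WT at 21 days. KO lay close to WT at 6 weeks and had 0.515 of the level in 21-day WT.

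Promoter sequence is shown for Ctla4 and Cd274, which were both low in KO and in 6-week WT, and for Havcr2, which was highest in KO. Each is the 250 bases before the RefSeq start on build GRCm38.p6, written 5′ to 3′ on the gene's strand. Capitals mark matches on either strand to the NFAT core GGAAA or the AP-1 motif TGANTCA, which do not overlap each other here. The positions are chr1:60908775-60909024 for Ctla4, chr19:29367188-29367437 for Cd274 and chr11:46454681-46454930 for Havcr2, all on the plus strand. The Ctla4 window lies inside the span of 60887000 to 60915832 given above, because that span begins upstream of the RefSeq start used here.
Ctla4: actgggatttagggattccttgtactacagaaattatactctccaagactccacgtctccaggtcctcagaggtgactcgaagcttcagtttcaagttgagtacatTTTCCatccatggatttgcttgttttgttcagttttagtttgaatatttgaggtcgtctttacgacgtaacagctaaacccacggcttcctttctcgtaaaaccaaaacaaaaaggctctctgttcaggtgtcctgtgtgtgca
Cd274: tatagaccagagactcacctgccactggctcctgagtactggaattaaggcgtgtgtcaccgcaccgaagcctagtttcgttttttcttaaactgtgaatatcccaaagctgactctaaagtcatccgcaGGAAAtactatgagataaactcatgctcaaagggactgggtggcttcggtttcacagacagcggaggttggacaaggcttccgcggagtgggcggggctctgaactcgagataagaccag
Havcr2: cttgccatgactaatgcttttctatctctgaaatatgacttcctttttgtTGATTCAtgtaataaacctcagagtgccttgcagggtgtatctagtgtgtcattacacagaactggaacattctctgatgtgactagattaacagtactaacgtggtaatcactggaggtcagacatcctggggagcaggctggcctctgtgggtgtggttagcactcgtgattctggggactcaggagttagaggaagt
The NFAT core match begins 144 bases before the start in Ctla4 and 120 bases before it in Cd274, and the AP-1 match begins 200 bases before it in Havcr2. Of 32851 RefSeq promoter windows of the same length, 55.6% hold the NFAT core and 6.75% the AP-1 motif. The NF-kB consensus, held by 7.25% of the windows, had no match in these windows of the 6 genes for which the table has a promoter. The other 3 are Pdcd1 and Tigit, with the NFAT core alone, and Btla, with no match to any of the 3 motifs. Matches are descriptions of the letters and not measured sites. The promoters of Cd28, Icos, Lag3 and Cd86 were not used here.

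Havcr2 and Lag3 were highest in KO. Havcr2 encodes TIM-3, an inhibitory receptor of effector and exhausted T cells, and lies on chromosome 11, at 46454935 to 46481255. It had 7.35 scaled FPKM in KO, with bounds of 6.32 and 8.38, 1.36 and 0.911 in KI, 1.52 in 6-week WT and 1.07 in 21-day WT. The other 4 libraries lay near 1, and the bounds of neighbours among them overlapped. The myeloid and dendritic sums given above were higher in KO than in WT at 21 days, and highest in 6-week WT. The part of such cells in the level of Havcr2 was not tested. Lag3 encodes a CD4-like receptor that binds MHC class II and lies on the minus strand of chromosome 6, at 124904361 to 124911705. It had 60.1 in KO, 25.7 and 23.4 in KI (24.6 ± 1.58, SD, n = 2), 13.1 in 6-week WT and 13.8 in 21-day WT. Lag3 was therefore higher in all 3 mutant libraries than in both WT libraries, with bounds apart, and the KI libraries lay between WT and KO. NK and CD8 T cells also express Lag3. The 4 NK cell markers summed to 6.29 scaled FPKM in KO, 2.17 and 1.61 in KI, 6.54 in 6-week WT and 3.11 in 21-day WT, with no marker at 0. The 2 CD8 genes summed to 10.1 in KO, 6.09 and 5.79 in KI, 13.2 in 6-week WT and 8.95 in 21-day WT. Both sums were highest in 6-week WT, and at 21 days both were higher in KO than in WT, as Lag3 was. Klrb1c, Prf1 and Cd8a of these lists were highest in KO, and Ncr1, Klrd1 and Cd8b1 were highest in 6-week WT. Klrd1 was lower in all 3 mutants than in both WT libraries. It had 1.17 in KO, 0.402 and 0.221 in KI, 3.17 in 6-week WT and 1.25 in 21-day WT. Klrb1c and Ncr1 were not among the tested genes. The part of NK and CD8 T cells in the level of Lag3 was not tested.

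Pdcd1, the PD-1 gene, had its lowest levels in the KI libraries. It lies on the minus strand of chromosome 1, at 94038307 to 94052553, and had 20.0 scaled FPKM in KO, 5.79 and 11.8 in KI (8.78 ± 4.22, SD, n = 2), 22.1 in 6-week WT and 17.9 in 21-day WT. The KI libraries differed about as much from each other on a fold scale as KI replicate 2 differed from WT at 6 weeks, and the bounds of KO overlapped those of both WT libraries. PD-1 and its ligand therefore ran in opposite directions in KI, where Cd274 was above and Pdcd1 below both WT libraries.

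Btla, whose receptor binds HVEM, was modestly higher in the mutant libraries. It lies on chromosome 16, at 45224315 to 45252895, and had 37.8 scaled FPKM in KO, 43.1 and 40.0 in KI (41.6 ± 2.18, SD, n = 2), 25.6 in 6-week WT and 29.9 in 21-day WT. The lowest mutant bound was 35.4 and the highest WT bound 31.4. B cells also express Btla. The B cell markers given above were lower in the mutants in 4 of 5 cases, Cd22 being the exception, and their part in the level of Btla was not tested. Tigit, whose receptor competes with CD226 for CD155, lies on the minus strand of chromosome 16, at 43648861 to 43664184. It had 72.7 in KO, 48.1 and 79.6 in KI (63.8 ± 22.3, SD, n = 2), 44.5 in 6-week WT and 68.5 in 21-day WT. The KI libraries lay at the top and next to the bottom of this order, so Tigit did not separate the groups.

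**Figure D4:**
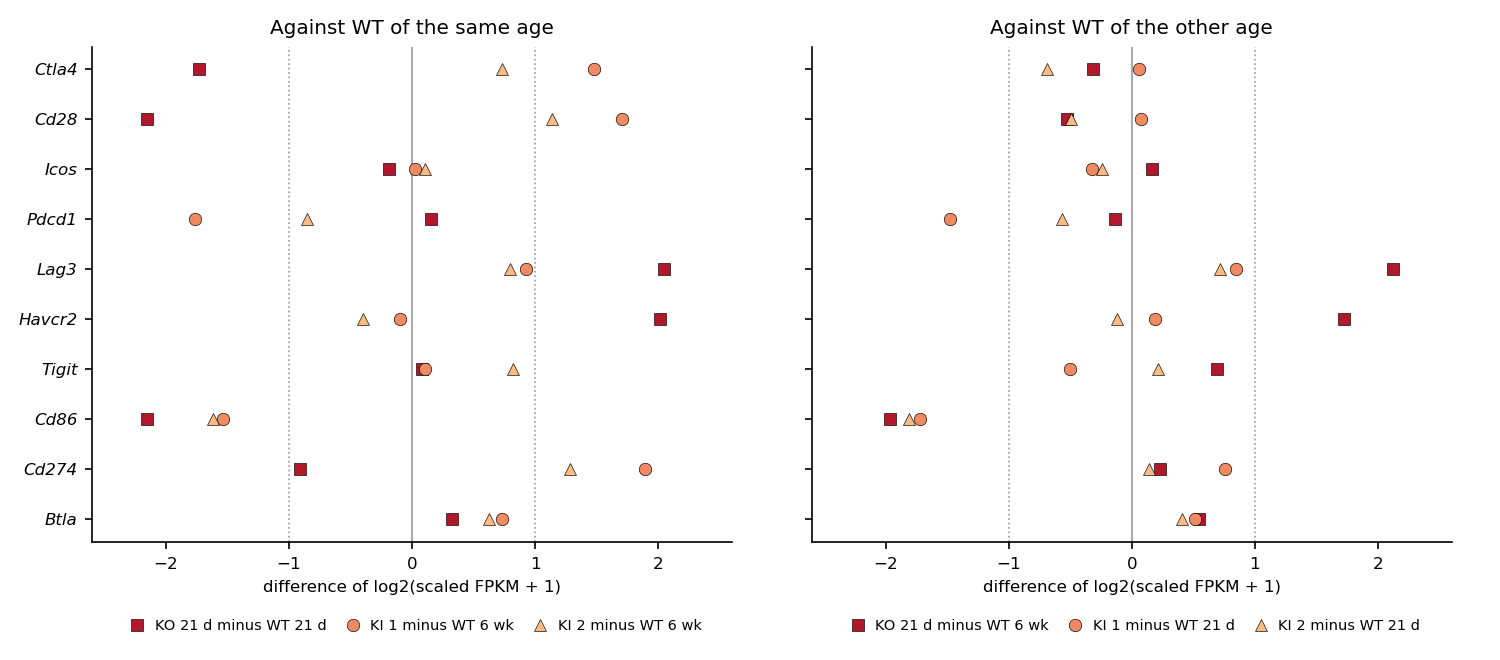
Differences of log2(scaled FPKM + 1) for each gene (rows) between a mutant library and the WT library of the same age (left) or of the other age (right), with dotted lines at 2-fold. Cd86 lay past 2-fold below WT in all 6 differences, and Lag3 and Btla lay above 0 in all 6, while Ctla4, Cd28 and Cd274 were at their farthest from 0 on the left.

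KI was compared with WT at 6 weeks to ask what an allele without protease activity changes at one age. Past 2-fold in both KI libraries were Cd28 and Cd274 on the higher side and Cd86 on the lower side, 3 of the 10 genes, against 5.81% of all tested genes (3.01% higher and 2.8% lower). The log2 differences were 1.42 for Cd28 (SE 0.344), 1.59 for Cd274 (SE 0.363) and -1.58 for Cd86 (SE 0.308), each in the same direction in both KI libraries. In limma none of the 10 passed an adjusted p of 0.05, the lowest being Cd86 at adjusted p = 0.397 and the highest Icos at adjusted p = 0.919. The limma test called 0.00885% of all tested genes, and the adjusted p of the 10 genes ranged from 0.168 to 0.946 over all settings tried. At an unadjusted p under 0.05 limma had 5 of the 10 (Cd28, Lag3, Cd86, Cd274 and Btla), against 10.7% of all tested genes. Ctla4 lay at 1.10 (SE 0.446), Pdcd1 at -1.31 (SE 0.503) and Lag3 at 0.86 (SE 0.236), with limma adjusted p = 0.488, 0.484 and 0.453. Ctla4 and Pdcd1 were past 2-fold in KI replicate 1 but not in replicate 2, so leaving out replicate 2 raises the count from 3 to 5. The median over the 10 was 0.57, and over all tested genes it was -0.0045. By their bounds, 7 of the 10 stood apart from WT at 6 weeks in both KI libraries, 5 higher (Ctla4, Cd28, Lag3, Cd274 and Btla) and 2 lower (Pdcd1 and Cd86), against 29.1% of all tested genes (16% higher and 13% lower). With 1 residual degree of freedom, the spread in this fit comes from the KI pair and is taken to hold for the single WT library too. Over all tested genes the split past 2-fold was 340 higher and 316 lower, 211 and 545 with FPKM as deposited, where the median of all genes was -0.26 and Pdcd1 took the place of Cd28 past 2-fold, and 439 and 271 with scaling by the protein-coding sum.

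KI was also set against both WT libraries, which differ in age. The rule here asks for a difference of group means past 2-fold with no overlap between the libraries, not for 2-fold in each KI library. By it Cd274 was higher and Cd86 and Pdcd1 were lower, 3 of the 10, against 2.55% of all tested genes (1.19% higher and 1.36% lower). Cd86 lay at -1.67 (SE 0.246), Pdcd1 at -1.16 (SE 0.368), Cd274 at 1.02 (SE 0.454), Lag3 at 0.82 (SE 0.207) and Btla at 0.57 (SE 0.207). In limma 0 of the 10 passed the threshold, with the lowest adjusted p = 0.859 for Cd86, lower in 2 of 2 KI libraries, and 4 (Pdcd1, Lag3, Cd86 and Btla) had an unadjusted p under 0.05, against 3.42% of all tested genes. The limma calls were again 0.00885% of all tested genes. Over the settings with both WT libraries in the fit, the lowest limma adjusted p of the 10 was 0.405, for Cd86 with protein-coding genes alone. Bounds were apart from both WT libraries for 5 of the 10, Lag3, Cd274 and Btla higher (3.23% of all tested genes) and Pdcd1 and Cd86 lower (3.03%), against 6.26% in either direction. Ctla4 lay at 0.40 (SE 0.551) and Cd28 at 0.61 (SE 0.579), and without WT at 6 weeks they turned to -0.31 and -0.21. Leaving out KI replicate 1 leaves Cd86 as the only one of the 10 past 2-fold, and leaving out WT at 21 days raises the count from 3 to 5. That last setting holds the libraries of KI against WT at 6 weeks, where the rule of 2-fold in each KI library gave 3. The split over all tested genes was 134 higher and 154 lower, 101 and 179 with FPKM as deposited, where Cd274 was no longer past 2-fold, and 200 and 118 with the protein-coding sum. This comparison shares the KI libraries and WT at 6 weeks with the one before it.

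KO was compared with WT at 21 days to ask what loss of Malt1 in Treg cells changes at that age, with 1 library per group and no replicate check. Past 2-fold were Lag3 and Havcr2 on the higher side and Cd28, Ctla4 and Cd86 on the lower side, 5 of the 10, against 14.3% of all tested genes (6.13% higher and 8.14% lower). The log2 differences were 2.04 for Lag3 and 2.01 for Havcr2, and -2.15 for Cd28, -1.73 for Ctla4 and -2.15 for Cd86. Fold values were 4.35 for Lag3 and 6.86 for Havcr2. Against WT at 6 weeks, Lag3 (2.12), Havcr2 (1.73) and Cd86 (-1.97) stayed past 2-fold, and Ctla4 (-0.32) and Cd28 (-0.53) did not, which gives 3 of the 10, against 5.59% of all tested genes. Foxp3 was at -1.19 and -0.36 against the same controls. Of all tested genes 1.12% lay past 2-fold above every other library in KO, Lag3 and Havcr2 among them. Bounds were apart between KO and WT at 21 days for 8 of the 10, against 51.7% of all tested genes (24.5% higher and 27.2% lower). Icos was among the lower ones there, but with FPKM as deposited it was higher, at 106 in KO and 92.4 in 21-day WT. The median over the 10 was -0.05, and over all tested genes it was 0.016. The split over all tested genes was 693 higher and 920 lower, and 1526 and 483 with FPKM as deposited, where the median of all genes was 0.35.

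The WT libraries at 6 weeks and 21 days differed at 3 of the same receptors and ligands. Ctla4 (-1.42), Cd28 (-1.63) and Cd274 (-1.14) were past 2-fold lower at 6 weeks, 3 of the 10, against 8.56% of all tested genes (3.38% higher and 5.18% lower). Cd86 (-0.19) and Lag3 (-0.08) differed little, with counting intervals of -0.43 to 0.06 and -0.34 to 0.19 on the log2 scale. Bounds were apart for 7 of the 10, 1 higher (Pdcd1) and 6 lower at 6 weeks, against 41.7% of all tested genes (18.6% higher and 23% lower). Ctla4 and Cd28 thus differed past 2-fold between libraries of 1 genotype, and these are the WT libraries that serve as controls above. The split over all tested genes was 382 higher and 585 lower, and 997 and 330 with FPKM as deposited, where Cd274 was no longer past 2-fold.

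Cd86, Lag3 and Btla separated all 3 Malt1 mutant libraries from both WT libraries. Cd86 was lower, in a direction that 7.02% of all tested genes shared, and Lag3 and Btla were higher, as were 7.34%. With bounds apart these shares were 1.02% lower and 0.912% higher. Past 2-fold for every pair of a mutant and a WT library, Cd86 was 1 of 17 genes, or 0.15% of those tested. The 3 genes kept this order with FPKM as deposited and with scaling by the protein-coding sum.

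Genes that work with these receptors were counted from lists chosen by hand. Of 9 tested ligands besides Cd86 and Cd274, none was past 2-fold in both KI libraries, against 5.81% of all tested genes. Icosl, the ICOS ligand, was past 2-fold higher in KO, at 6.87 scaled FPKM against 1.59 in 21-day WT. That is 1 of 9, against 6.13% of all tested genes higher. Of 9 other T cell receptors of this kind, 0 were higher and 2 lower past 2-fold in both KI libraries, with a median of -0.60, against 3.01% higher and 2.8% lower over all tested genes. They were Klrg1, an inhibitory receptor of effector lymphocytes, at 0.699 and 7.16 in KI against 37.3 in 6-week WT, and Lair1, a collagen receptor of many leukocytes, at 0.976 and 0.804 against 6.14. Lair1 had 0.807 in 21-day WT and 1.35 in KO, so it averaged 1 or more only through 6-week WT, the control here. It was high in 6-week WT alone, the library with the highest myeloid and dendritic sums, and their part in its level was not tested. In KO 3 of the 9 were lower past 2-fold, against 8.14% of all tested genes. They were Klrg1 with 4.98 against 21.3 in 21-day WT, Cd226, the activating rival of TIGIT, with 7.46 against 20.1, and Cd200r1 with 2.27 against 6.45. Against WT at 6 weeks, Klrg1 (-2.68) and Cd200r1 (-1.68) were past 2-fold in KO, and Cd226 (-0.60) and Icosl (0.88) were not.

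Among 8 tested genes of CTLA-4 trafficking, Lrba alone was past 2-fold. LRBA protects CTLA-4 from lysosomal degradation, and its gene had 4.02 scaled FPKM in KO, 12.6 and 16.6 in KI, 5.74 in 6-week WT and 13.1 in 21-day WT, the same split of libraries as Ctla4. In KO it was at -0.43 against WT at 6 weeks. Of 13 genes of CD28 and ICOS signalling, Malt1 alone was past 2-fold, higher in both KI libraries, 1 of 13 against 3.01%. Of 7 genes of inhibitory receptor signalling none was, in either comparison. The shares of all tested genes in either direction were 5.81% in KI and 14.3% in KO. Of 18 regulators of checkpoint transcripts, Irf4 was higher and Tox2 lower past 2-fold in both KI libraries, 1 of 18 in each direction, against the same 3.01% and 2.8%. Irf4, a transcription factor of activated and effector Treg cells, had 31.1 and 39.5 in KI against 11.3 in 6-week WT, and Tox2, of the TOX family tied to PD-1 expression, had 1.78 and 1.46 against 5.59. In KO, 2 regulators were higher and 5 lower past 2-fold, against 6.13% and 8.14% of all tested genes. The higher ones were Eomes at 2.76 against 0.599 in 21-day WT and Tbx21, which encodes T-bet, at 6.34 against 2.37. Eomes averaged 1 or more only through KO, the library where it was highest. The 5 lower ones included Foxp3 and Nr4a1, a T cell receptor response gene, at 43.2 against 192, Rc3h1, which encodes Roquin-1, a repressor of Icos mRNA, at 3.81 against 11.5, and Zc3h12a, which encodes Regnase-1, at 20.3 against 45.3. Against WT at 6 weeks none of these stayed past 2-fold in KO, with Nr4a1 at -0.84, Rc3h1 at -0.41, Foxp3 at -0.36, Zc3h12a at -0.04, Eomes at 0.52 and Tbx21 at 0.78. No gene of these lists passed limma in KI.

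The profiles over the 5 libraries were compared by the root mean square (RMS) difference of centred log2 values, a description over libraries that share depth and composition differences. Ctla4 and Cd28 were the closest pair of the 10 (RMS 0.21), followed by Icos and Tigit (0.27), and Ctla4 and Cd274 stood 0.33 apart. Among 9872 tested protein-coding genes the nearest to Ctla4 were Sfpq (0.080), Rybp (0.11) and Jmy (0.11), and to Cd28 Tagap (0.17), March7 (0.19) and Rpl9-ps6 (0.19). Cd274 was nearest to Tfrc (0.085), Ttn (0.097) and Avl9 (0.11), and Pdcd1 to RBM4B (0.14), 1110034G24Rik (0.18) and Angptl2 (0.18). Lag3 was nearest to Cysltr1 (0.093), Cdkn2a (0.17) and Fam20a (0.19), and Havcr2 to Trpm6 (0.066), Stc2 (0.12) and Smtn (0.15). For Cd86 no gene came within 0.2, and the nearest were Sdc4 (0.23), Gm11007 (0.25) and the chemokine receptor gene Ccr6 (0.26). Some of these genes averaged 1 or more only through the libraries where they were high. They were Cysltr1, Cdkn2a, Trpm6 and Stc2 through KO, Ttn through KI, and Sdc4 and Gm11007 through WT. For them the filter itself selects for the shared pattern.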

How the data were processed

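RNA from sorted CD4+YFP+ Treg cells was sequenced in 5 libraries. Per the submitters' processing notes the authors' tools were CASAVA, HISAT2 2.1.0 and Cufflinks 2.2.1 and the build was GRCm38, with no order or settings listed. The deposited values are FPKM per gene with a lower and an upper bound, per the file headers, and all 10 genes had status OK. Which annotation, strand setting and read type applied is not given in the sources used here.

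Each library was scaled by the median of its ratios to the geometric mean over 9874 genes that reached an FPKM of 1 in every library. Log2 differences use log2(scaled FPKM + 1), so those of low genes come out too small. Depth was estimated from the bounds, taken as 2 standard errors each side, over protein-coding genes with a single transcript in GENCODE M21, whose release also gave gene types. It is approximate, with quartiles of 6019000 to 7710000 fragments in 6-week WT and 21699000 to 31489000 in 21-day WT. Starts in the files count from 0 and are printed from 1. The 11296 genes averaging 1 or more were fitted in R 4.3.3 by limma 3.58.1 with a mean-variance trend, and its two-sided p-values were adjusted over all of them by Benjamini and Hochberg. Its code was first tested on simulated data. Comparisons of 1 library with 1 were counted by size, past 2-fold. Intervals of such differences come from the bounds and cover counting error only. Plots and summaries used Python 3.11.15.

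Members and gene lists were chosen with earlier results of these data known. All 10 members are named. List genes are named where past 2-fold in both KI libraries, or among the 4 largest per list and direction past 2-fold in KO. The 3 nearest profiles are named for members whose log2 range was at least 1. Of 6 listed plasmacytoid dendritic cell markers 5 were analysed here, and 1 listed B cell marker is not reported here. Counts by non-overlapping bounds and the order of all mutant against all WT libraries were added after the data were seen.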

Additional observations from a re-analysis of the deposited data

How the results depend on the processing

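No paired analysis was possible because the groups compared share fewer than 2 replicate numbers. Over all genes the limma call of 1 gene in KI against WT at 6 weeks became 50 with a pseudocount of 0.1, 25 with a filter at a mean of 5, 15 with protein-coding genes alone, and 0 with no filter or without trend. Against both WT libraries it became 0 with no filter, with protein-coding genes alone, and in 2 of the fits that leave out 1 library, which ranged from 0 to 1. Counts past 2-fold moved as follows. The 656 of KI against WT at 6 weeks became 1055 with a pseudocount of 0.1, 323 with the filter at 5, 384 with protein-coding genes alone, and 1260 to 1492 with 1 KI library left out. The 288 against both WT libraries, counted by group means without overlap, became 529 with a pseudocount of 0.1, 128 with the filter at 5, and 276 to 1077 with 1 library left out. The 1613 of KO became 934 with the filter at 5 and 632 against WT at 6 weeks, and the 967 between the WT libraries became 1498 with a pseudocount of 0.1, 528 with the filter at 5 and 525 with protein-coding genes alone. Counted by bounds, KI had 3285 genes and 7 of the 10, and KO had 5839 genes and 8 of the 10.

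Of the 10, the count past 2-fold was 3 to 5 in KI with 1 KI library left out, 1 to 5 against both WT libraries with 1 library left out, and 3 for KO against WT at 6 weeks. Some small differences changed sign. Icos in KI against WT at 6 weeks turned to -0.22 with FPKM as deposited. Against both WT libraries with 1 library left out, Ctla4 ranged from -0.31 to 1.10, Cd28 from -0.21 to 1.42, Icos from -0.28 to 0.067, Havcr2 from -0.26 to 0.046 and Tigit from -0.20 to 0.52. Without WT at 6 weeks Ctla4, Cd28, Havcr2 (0.036) and Tigit (-0.14) changed sign, and with the protein-coding sum Icos was 0.026. The cause was not tested. Havcr2 is not among the genes with the filter at 5. With 1 KI library left out, KI against WT at 6 weeks has no residual degree of freedom and hence values only.

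Depth limits low genes most. Havcr2 in WT at 6 weeks had bounds of 1.02 and 2.03 around 1.52, and Cd86 in KO had bounds of 0.697 and 2.74 around 1.72.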

Other observations

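Among the listed partners, named here after their values were seen, several receptors other than the 10 also separated the 3 mutant libraries from both WT libraries. Of the 9 tested receptors, 5 were lower in all 3 mutants and 0 higher, against 7.02% and 7.34% of all tested genes. CD226, CD96 and TIGIT share ligands of the nectin family. Cd226 had 7.46 scaled FPKM in KO, 6.28 and 8.93 in KI, 11.8 in 6-week WT and 20.1 in 21-day WT. Cd96 had 35.6 in KO, 32.3 and 41.6 in KI, 59.1 in 6-week WT and 53.4 in 21-day WT. Both, like Klrg1, kept this order with FPKM as deposited and with the protein-coding sum, whereas Cd5 lost it under both and Vsir with FPKM as deposited. Tigit itself overlapped between the genotypes.

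Prdm1, which encodes the effector Treg transcription factor Blimp-1, was higher in all 3 mutants, at 7.04 in KO and 7.11 and 10.7 in KI against 3.53 in 6-week WT and 4.70 in 21-day WT, under all 3 scalings. It was 1 of 18 tested regulators higher in this way, with 0 lower, against 7.34% and 7.02% of all tested genes. Pdcd1lg2, which encodes PD-L2, had 8.89 in KO, 7.78 and 12.7 in KI, 6.08 in 6-week WT and 4.49 in 21-day WT, but its libraries overlapped with FPKM as deposited. It was 1 of 9 tested ligands higher in all 3 mutants, and 2 were lower, Vsir and Lgals9. Of 13 genes of CD28 and ICOS signalling 1 was lower, Themis, and 0 were higher. Of 7 genes of inhibitory receptor signalling 2 were lower, Ptpn6 and Sh2d1a, and 0 were higher. None of these genes passed limma in KI against WT at 6 weeks. The lowest of their adjusted p was 0.460, for Klrg1, lower in 2 of 2 KI libraries.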
